A study of Mus musculus with 12 samples.

Results

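Female mice bearing a tongue tumor (FT) were compared with normal female mice (FN) by the RNA of the trigeminal ganglion (TG) neurons that supply the tongue. The comparison takes the 3 FT and 3 FN libraries, 6 of the 12 libraries sequenced, chosen by their group labels alone. All mice were Balb/c athymic nude animals, which lack T cells, and all received the tracer WGA-488 in the tongue on day 13, so that nerve endings could carry it back to the cell bodies. FT animals had been given 350000 HSC3 cells, a human oral squamous cell carcinoma line, in the tongue, and labeled neurons were sorted from ganglia taken on day 15. FT samples each pooled 4 ipsilateral TGs of 4 animals, and FN samples 4 TGs of 2 animals. For FN, the labels record no injected cells, while the study's methods describe a like number of normal oral keratinocytes, and this was not settled. The 2 groups thus also differ in the number of animals behind each pool, and the tracer strength is given as 0.5% in the labels and otherwise in the methods.

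The TG holds the cell bodies of the neurons that carry touch, temperature and pain from the face and mouth, wrapped by satellite glia and crossed by vessels and resident macrophages. Nociceptors, the neurons that report damage, respond to injury of their endings by changing neuropeptide and regeneration genes, and a damaged tissue recruits neutrophils and monocytes through chemokines, small secreted proteins that attract white blood cells. The question put to the data was which genes of the lingual neurons differ in female mice when the tongue carries a tumor.

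Neuronal genes were present in all 6 libraries. Tubb3, the neuronal tubulin, was counted at 3269.6, 4576 and 3582 CPM (a gene's share of the reads on genes, scaled to 1000000) in FN replicates 1 to 3 (FN1, FN2 and FN3) and at 3762, 1943 and 6006 CPM in FT1, FT2 and FT3. The 24 tested genes of a sensory neuron identity list summed to 21198 to 23969 CPM in FN and to 22609 to 27859 CPM in FT. Xist was at 96.5 CPM or more in each of these libraries and 4 Y-linked genes stayed at or below 0.274 CPM, as the female labels say. The libraries held 4592891 to 7955100 reads on genes.

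The replicates did not spread evenly. FN1, FN3 and FT1 had 43.3% to 45.5% of their reads mapped to several places, against 56.0% in FN2, 52.6% in FT3 and 68.4% in FT2. Of the 13835 genes tested, 239 (1.73%) were over 2-fold from the mean of FN1 and FN3 in FT1. Library against library, FT1 was that far from FN1 at 380 genes and from FN3 at 441, and FN1 from FN3 at 385 (2.78%). In FN2, a normal library, 7252 genes (52.4%) were that far from the same mean, in FT3 4402 (31.8%) and in FT2 7393 (53.4%). FT1 correlated with FN1 at r = 0.983 and with FN3 at r = 0.983 across genes, whereas FT3 was closest to FN2 (r = 0.944) and less close to FT1 (r = 0.909). FT2 had no correlation above 0.832 with another library. These r are across genes within a pair of libraries and carry no test. One tumor library was thus close to 2 normal libraries, a second was closest to the remaining normal library, and the third stood apart from all, so levels below are given by library, and fitted values are from all 12 libraries unless 10 (without FN2 and FT2) or 9 (without FN2, FT2 and FT3) are named. The set of 9 leaves FT1 alone against FN1 and FN3, and FT1 is then assumed to vary like the other groups.

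No gene differed between FT and FN at an adjusted p under 0.05, by edgeR's quasi-likelihood test with Benjamini-Hochberg adjustment, in any of the 3 fits or by DESeq2 or limma-voom. At an unadjusted p under 0.05 there were 528 genes with 12 libraries (3.82% of those tested), 2048 with 10 (14.7%) and 667 with 9 (4.66%), and 682 by DESeq2 and 564 by limma-voom with 12. With counts simulated at the spread pooled over the 12 libraries, edgeR called 0 of 100 genes changed 2-fold and 26 of 100 changed 4-fold. DESeq2 called 6 and 56 and limma-voom 0 and 23, and the unchanged genes called were 1, 14 and 2 in turn. Most 2-fold changes were thus missed at that spread. The simulation gave every group the same spread and held no outlying library, so it does not measure what was missed between FT and FN. The biological coefficient of variation was 0.577 over the FN and FT libraries and 0.158 over those of the males. Where the text below says higher or lower, it gives levels and fitted differences, none of which passed adjustment. The adjusted p was 0.994 with 12 libraries and 0.997 with 9 for the genes named below that meet the criteria in those fits.

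DEGs were defined in the study by a p under 0.05 without adjustment together with FC > 1.5 and RPKM > 5 in FT or FN. These criteria were met by 301 genes with 12 libraries (2.18% of the genes tested), of which 270 were higher in FT (1.95%) and 31 lower (0.224%). There were 1358 such genes with 10 libraries (9.74%), of which 979 were higher (7.02%) and 379 lower (2.72%). The 9 libraries gave 140 (0.978%), of which 51 were higher (0.356%) and 89 lower (0.622%). The fits shared few genes. Those of 12 and 10 libraries had 60 in common, 19.9% of the former and 4.42% of the latter, and those of 12 and 9 libraries had 10, 3.32% and 7.14%. Of the 270 genes higher in FT with 12 libraries, 259 had their highest value in FT2 and 232 were more than 2 times as high in FT2 as in either other FT library, and 11 of the 270 still met the criteria without FT2. The direction also turned, with 89.7% of the genes higher in FT with 12 libraries and 36.4% with 9.

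**Figure D1:**
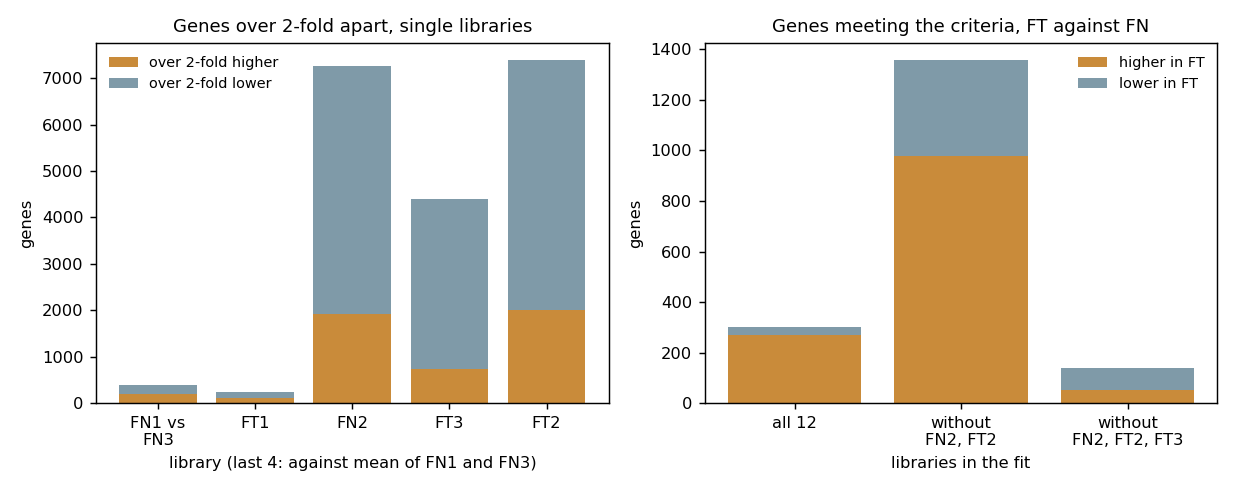
Left, number of genes (y axis) over 2-fold higher or lower in one library (x axis) than the mean of FN1 and FN3, beside FN1 against FN3, of 13835 genes tested. Right, number of genes meeting the criteria, higher and lower in FT, with all 12 libraries, 10 and 9. FT1 differs at 239 genes and the normal library FN2 at 7252, and the counts meeting the criteria run from 140 to 1358 with the libraries used.

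Genes meeting the criteria in the same direction in all 3 fits numbered 8 of 13811 (0.0579%), a set found after the values were seen. Camp, Snrnp70 and Vtn were higher in FT, and Ctgf, Cav2, Sgk1, Arfip1 and Tmed7 lower. The 3 fits all hold FN1, FN3, FT1 and the male libraries, so meeting the criteria in each is no replication. In 2 of the 8, Camp and Snrnp70, all FT libraries lay beyond all FN libraries, and in the 5 that were lower in FT the normal library FN2 was nearer to the mean of FT2 and FT3 than to that of FN1 and FN3.

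Camp encodes cathelicidin, an antimicrobial peptide stored in neutrophil granules (mm9 chr9:109749889-109751970, minus strand). It was at 1.13, 0.522 and 0.548 CPM in FN1, FN2 and FN3 and at 4.25, 8.27 and 3.07 CPM in FT1, FT2 and FT3. Every FT library was above every FN library, at low counts, 4 to 9 reads in FN and 22 to 38 in FT. Fitted log2 fold changes were 2.95 (SE 0.86) with 12 libraries, 2.18 (SE 0.86) with 10 and 2.31 (SE 1.01) with 9.

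Snrnp70, a protein of the U1 particle that marks splice sites (mm9 chr7:52631824-52651062, minus strand), was at 34.2, 29.9 and 26.6 CPM in FN1, FN2 and FN3 and at 45.5, 53.8 and 48.5 CPM in FT1, FT2 and FT3. The groups did not overlap and no library of either group stood far from the other two. Its log2 fold change was 0.80 (SE 0.32) with 12 libraries and 0.59 (SE 0.22) with 9.

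Vtn encodes vitronectin, an adhesive glycoprotein of plasma and matrix that pericytes also make (mm9 chr11:78312593-78315826, plus strand). Its levels were 4.78, 4.05 and 3.70 CPM in FN1, FN2 and FN3, and 22.4, 1.09 and 21.5 CPM in FT1, FT2 and FT3. FT1 and FT3 stood well above all 3 FN libraries, FN2 included, and FT2 lay below them. The log2 fold change was 1.81 (SE 0.70) with 12 libraries and 2.33 without FT2.

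Ctgf encodes a matrix protein induced by the co-activator YAP (mm9 chr10:24315248-24318489, plus strand). It was at 151, 26.7 and 205 CPM in FN1, FN2 and FN3 and at 78.2, 1.31 and 20.1 CPM in FT1, FT2 and FT3. FT1 was below FN1 and FN3 but above FN2, so the groups overlapped through FN2. On the log2 scale the fitted difference was -1.92 (SE 0.87) with 12 libraries and -1.18 (SE 0.48) with 9. FT1 alone stood at 0.439 of the mean of FN1 and FN3.

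Cav2, a caveolin of the flask-shaped membrane pits of endothelial cells (mm9 chr6:17231185-17239115, plus strand), was at 131, 12.8 and 91.9 CPM in FN1, FN2 and FN3 and at 52.0, 12.4 and 16.0 CPM in FT1, FT2 and FT3. Sgk1, a kinase gene induced by glucocorticoids and salt (mm9 chr10:21601990-21719709, plus strand), was at 114, 31.7 and 121 CPM in FN and at 71.3, 22.2 and 32.1 CPM in FT, in the same order of replicates. For both genes FT1 lay between the FN1 and FN3 pair and FN2, and FN2 lay among the low tumor libraries. With 12 libraries the log2 fold change was -1.46 (SE 0.60) for Cav2 and -1.002 (SE 0.44) for Sgk1, and with 9 it was -1.09 (SE 0.28) and -0.71 (SE 0.23).

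Arfip1, a protein that binds small GTPases at the Golgi, was at 75.5, 29.4 and 58.2 CPM in FN1, FN2 and FN3 and at 41.6, 20.7 and 18.5 CPM in FT1, FT2 and FT3. Tmed7, a cargo adaptor of the secretory pathway, was at 73.9, 25.1 and 47.1 CPM in FN and at 38.7, 13.1 and 15.3 CPM in FT. In each case FT1 was below FN1 and FN3, and FN2 was below FT1.

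**Figure D2:**
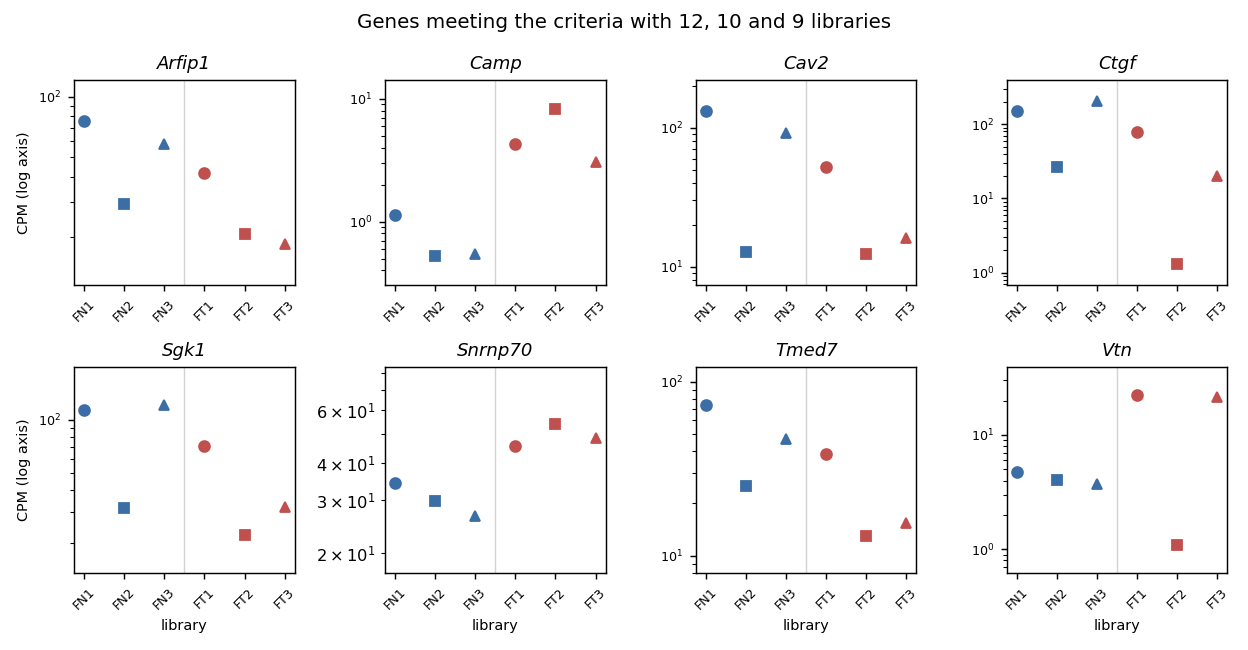
CPM (log axis) of the 8 genes meeting the criteria with 12, 10 and 9 libraries, 1 point for each FN (blue) and FT (red) library, marker shape by replicate. Camp and Snrnp70 show no overlap, with Camp at 1.13 CPM or less in FN and 3.07 or more in FT, while FN2 lies with FT2 and FT3 in Ctgf, Cav2, Sgk1, Arfip1 and Tmed7.

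Among lists with more than 10 genes tested, FT1, the tumor library closest to FN1 and FN3, had its highest medians in the neutrophil (1.51) and chemokine (0.84) lists, as log2 differences from the mean of FN1 and FN3. For 26 tested genes of chemokines and interleukins, FT1 was above both FN1 and FN3 in 20 and below both in 2, and for 12 tested neutrophil genes it was above both in 8 and below both in 0. FT3 was above both in 18 of 26 and 6 of 12, FN2 in 12 and 6, and FT2 in 9 and 4. Of all 13835 genes tested, FT1 was above both in 4437 and below both in 5096. FT3 was above both in 5043 of them, FN2 in 4498 and FT2 in 4260. The median log2 fold change over the chemokine list was 0.43 with 12 libraries, 1.15 with 10 and 0.84 with 9, and over the neutrophil list 0.49, 0.90 and 1.09, beside -0.06, -0.06 and -0.02 over all genes tested. With 12, 10 and 9 libraries 26, 27 and 30 chemokine genes and 12, 13 and 15 neutrophil genes were tested. The filter on counts asks for as many libraries as the smallest group holds. With 9 libraries a gene could thus be tested because of a single library such as FT1, so the medians do not cover the same genes. The criteria were met by 3, 10 and 3 of the chemokine genes, all higher in FT, and by 1, 3 and 2 of the neutrophil genes higher and 1, 0 and 0 lower, where over all genes 1.95%, 7.02% and 0.356% were higher and 0.224%, 2.72% and 0.622% lower. Between FT and FN, 4 of the 26 chemokine genes did not overlap, all higher in FT, against 344 of 13835 genes (2.49%) in either direction and 1.22% higher in FT over all genes. These 4, Ccl12, Cxcl2, Ccl11 and Pf4, are also among the genes the study named as higher in FT. So are many other members of the chemokine and neutrophil lists. The study chose those genes on samples of this comparison, so the counts of both lists are no independent evidence of a direction.

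Cxcl1 and Cxcl2 encode the main neutrophil attractants of the mouse, neighbouring genes on chromosome 5 that NF-kB, a transcription factor of inflammation, is known to induce. Their upstream sequence is shown because both hold a motif of this factor, and they were picked after their values were seen. Both lines are RefSeq sequence of GRCm38.p6, plus strand, from 130 to 31 bases before the gene's start, at chr5:90891115-90891214 for Cxcl1 and chr5:90903769-90903868 for Cxcl2, with capitals marking matches on either strand to GGG, any 2 bases and TTTCC, the core of an NF-kB site.
Cxcl1: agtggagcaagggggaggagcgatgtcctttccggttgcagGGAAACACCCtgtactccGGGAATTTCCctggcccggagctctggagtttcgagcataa
Cxcl2: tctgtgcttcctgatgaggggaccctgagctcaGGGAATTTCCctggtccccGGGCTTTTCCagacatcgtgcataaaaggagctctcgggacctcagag
Each held 2 matches in its 300-base promoter (250 bases before to 50 after the start). Of 32851 promoters of that length, 535 (1.63%) held a match and 10 held 2 or more. Of the 36 listed chemokine and interleukin genes 26 had a promoter in the table, and 5 of these held a match. A match is a run of letters, and binding was not measured here.

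Cxcl1 was at 5.53, 24.5 and 6.85 CPM in FN1, FN2 and FN3 and at 21.4, 3.70 and 30.1 CPM in FT1, FT2 and FT3. Cxcl2 was at 7.17, 6.52 and 1.51 CPM in FN and at 11.9, 37.7 and 13.5 CPM in FT. Cxcl2 did not overlap between groups, whereas Cxcl1 was high in FT1 and FT3 but also in the normal library FN2, and lowest in FT2. The log2 fold change with 12 libraries was 2.19 (SE 0.77) for Cxcl2 and 0.44 (SE 0.69) for Cxcl1, and with 9 libraries it was 1.45 (SE 0.86) and 1.796 (SE 0.44). Cxcl1 stood at 2.17 with 10. Cxcl2 met the criteria with 12 and 10 libraries and Cxcl1 with 10 and 9, so neither met them in all 3 fits.

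Among monocyte attractants, Ccl12 was at 1.01, 0.130 and 0.685 CPM in FN1, FN2 and FN3 and at 3.15, 15.7 and 4.46 CPM in FT1, FT2 and FT3. Ccl7 was at 3.02, 6.002 and 1.51 CPM in FN and at 10.2, 2.83 and 9.76 CPM in FT. Ccl12 separated the groups and Ccl7 did not, since FT2 was below FN1 and FN2. Ccl11, the eosinophil attractant eotaxin, was at 1.51, 3.39 and 1.23 CPM in FN and at 4.39, 4.36 and 7.39 CPM in FT, with no overlap (log2 fold change 1.38, SE 0.68, and 2.20 with 10 libraries). Pf4, a chemokine of platelets and macrophages, was at 2.64, 1.96 and 1.78 CPM in FN and at 4.25, 25.5 and 8.92 CPM in FT, again without overlap. Most of these levels were low, and 3 reads correspond to 0.377 to 0.411 CPM in FN and to 0.412 to 0.653 CPM in FT.

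The interleukin 1 genes encode the fever and pain cytokines of activated myeloid cells. Il1a was at 1.26, 0.261 and 0.822 CPM in FN1, FN2 and FN3 and at 7.68, 0 and 6.13 CPM in FT1, FT2 and FT3. Il1b was at 14.1, 29.4 and 6.99 CPM in FN and at 33.5, 6.31 and 41.8 CPM in FT. FT1 and FT3 were the 2 highest libraries for both, FT2 was the lowest of the 6, and FN2 was the lowest normal library for Il1a and the highest for Il1b. Without FT2 the log2 fold change was 3.10 for Il1a and 1.01 for Il1b.

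Granule genes of neutrophils followed Camp in FT1 and FT3 but not in FT2. Ngp, neutrophilic granule protein, was at 5.41, 1.44 and 1.51 CPM in FN1, FN2 and FN3 and at 23.05, 0.871 and 15.8 CPM in FT1, FT2 and FT3. Ltf, lactoferrin, was at 0.754, 0 and 1.37 CPM in FN and at 9.05, 0.435 and 3.07 CPM in FT. Both genes were highest in FT1 and next highest in FT3, while FT2 was below every FN library for Ngp and between them for Ltf. The log2 fold change was 2.25 (SE 1.11) for Ngp and 2.59 (SE 1.15) for Ltf with 12 libraries, and 2.73 (SE 1.12) and 3.09 (SE 1.05) with 9. S100a8 and S100a9, which encode the calprotectin subunits, did not follow them. S100a8 was at 37.3, 44.1 and 8.63 CPM in FN and at 48.7, 137 and 32.5 CPM in FT, and S100a9 at 14.7, 13.7 and 4.38 CPM and at 25.9, 39.6 and 11.9 CPM, with overlap in both. Lcn2, lipocalin 2, went the other way, at 51.2, 270 and 40.5 CPM in FN and at 45.3, 7.62 and 31.5 CPM in FT, where FN2 was far above and FT2 far below the rest.

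Summed over the neutrophil list, the level was 73.3 to 388 CPM in FN and 157 to 216 CPM in FT, and over the macrophage list 285 to 602 CPM in FN and 324 to 745 CPM in FT, so neither sum separated the groups. Elane, the neutrophil elastase, was at 0 in the FN libraries and FT3, and Cxcr2, the neutrophil chemokine receptor, was at 0 in FT2 and FT3. The lymphocyte list summed to 0.55 to 2.35 CPM in FN and to 1.37 to 9.80 CPM in FT, with no gene tested. In sorted bulk samples, more cells of a type and more RNA per cell cannot be told apart, and whether neutrophils or monocytes in the sort bear on these values was not tested.

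Cd14, the lipopolysaccharide co-receptor of monocytes, was at 29.4, 39.7 and 18.2 CPM in FN1, FN2 and FN3 and at 99.5, 2.18 and 54.4 CPM in FT1, FT2 and FT3. Ly86 (MD-1), a partner of the Toll-like receptor RP105, was at 12.6, 19.0 and 10.4 CPM in FN and at 26.2, 2.61 and 40.3 CPM in FT. Icam1, a leukocyte adhesion molecule, was at 23.9, 8.09 and 30.96 CPM in FN and at 74.3, 2.61 and 26.1 CPM in FT. FT1 was well above every FN library for all 3, FT2 was the lowest library for all 3, and FT3 exceeded FN for Cd14 and Ly86 only. In contrast, 19 of 29 tested macrophage genes were above FN1 and FN3 in FT3 but 7 of 29 in FT1. Of all 13835 genes tested, 5043 were above both in FT3 and 4437 in FT1. The macrophage list's median log2 fold change was 0.47 with 12 libraries, 0.78 with 10 and 0.24 with 9.

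**Figure D3:**
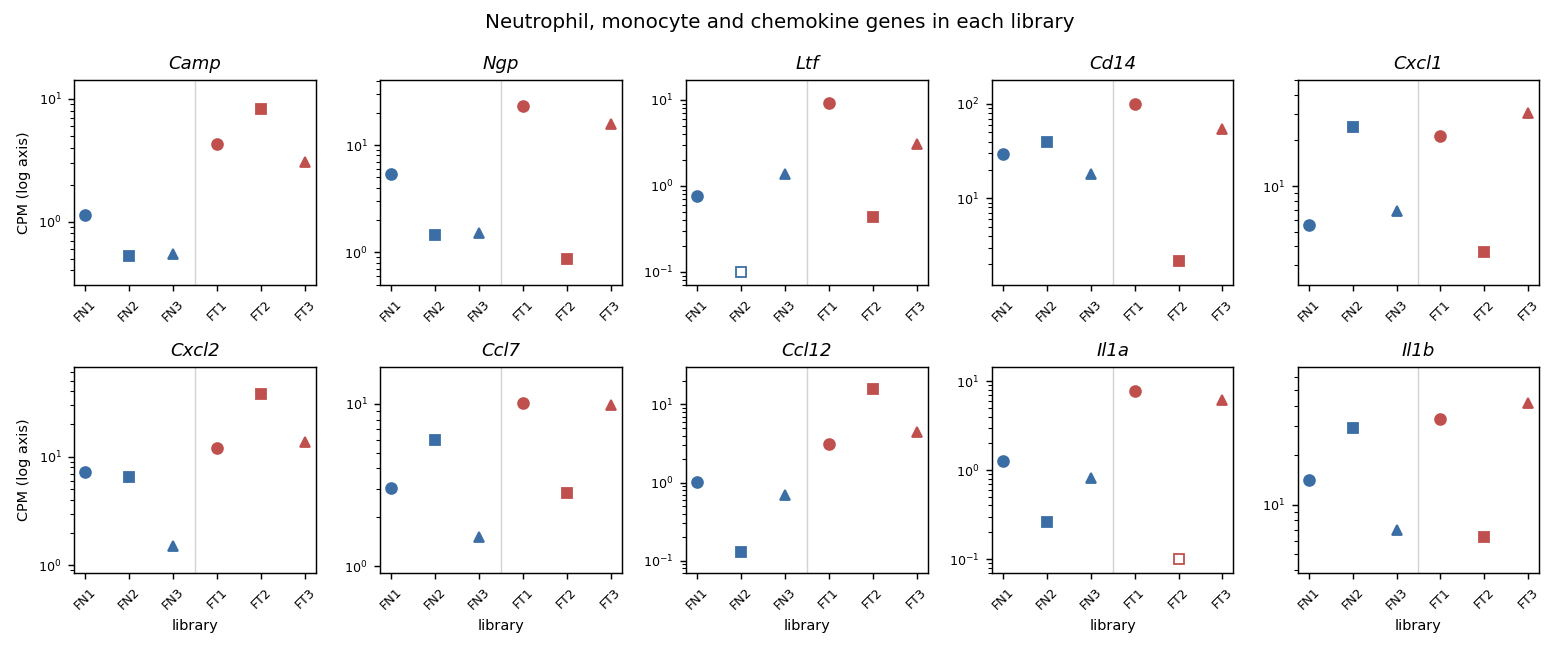
CPM (log axis) of 10 neutrophil, monocyte, chemokine and interleukin genes in each FN (blue) and FT (red) library, and an open marker drawn at the foot of the axis is a count of 0. FT1 and FT3 lie above FN1 and FN3 in each panel, FT2 is high in Camp, Cxcl2 and Ccl12 and at or below the highest normal library in the other 7, and FN2 is near the tumor values in Cxcl1 and Il1b.

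Endothelial genes were lower in FT1 than in FN1 and FN3, and far lower in FN2, FT2 and FT3. Of 35 tested endothelial genes, FT1 was below both FN1 and FN3 in 31, FN2 in 29, FT2 in 33 and FT3 in 30. Of all 13835 genes tested, FT1 was below both in 5096, FN2 in 8355, FT2 in 8728 and FT3 in 7565. Many genes of the endothelial list, such as Pecam1, Tek and Cav2, are also among those the study named as lower in FT. The study chose them on samples of this comparison, so the counts of the endothelial list are no independent evidence of a direction. The list's median, relative to the mean of FN1 and FN3, was -0.52 on the log2 scale in FT1, -2.40 in FN2, -2.89 in FT2 and -1.83 in FT3, beside -0.01, -0.55, -0.64 and -0.30 over all genes tested. The second lowest of these medians was thus that of a normal library. The fitted median was -0.70 with 12 libraries, -1.02 with 10 and -0.53 with 9, and the criteria were met by 1, 10 and 2 of the 35 genes, all lower in FT, beside 0.224%, 2.72% and 0.622% of all genes. The groups did not overlap for Plvap alone, the protein of endothelial fenestrae, at 76.3, 61.1 and 77.8 CPM in FN1, FN2 and FN3 and at 61.0, 8.93 and 44.9 CPM in FT1, FT2 and FT3, and FT1 and FN2 were all but equal.

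Pecam1, the junction protein CD31, was at 163, 15.0 and 154 CPM in FN1, FN2 and FN3 and at 101, 4.79 and 15.6 CPM in FT1, FT2 and FT3. Tek, the angiopoietin receptor, was at 53.6, 3.26 and 53.6 CPM in FN and at 27.4, 2.83 and 6.83 CPM in FT. FN2 was within the range of FT2 and FT3 for both, and FT1 stood between them and the other normal libraries. Not every endothelial gene went this way. Cldn5, a tight junction claudin, was at 403, 427 and 445 CPM in FN and at 397, 59.2 and 624 CPM in FT, far lower in FT2 alone, and Cdh5, VE-cadherin, was at 24.1, 4.05 and 25.8 CPM in FN and at 14.4, 30.3 and 6.55 CPM in FT, where FT2 was the highest. The summed endothelial level was 2138 to 4168 CPM in FN and 726 to 3086 CPM in FT. Whether vessel cells in the sort bear on these values was not tested.

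Pericyte and smooth muscle genes summed to 2502, 778 and 2384 CPM in FN1, FN2 and FN3 and to 2365, 1153 and 1214 CPM in FT1, FT2 and FT3, so the sum was low in FN2, FT2 and FT3 and not in FT1. Of 19 tested genes FT1 was below both FN1 and FN3 in 2, FN2 in 12, FT2 in 16 and FT3 in 9. Of all 13835 genes tested these numbers were 5096 in FT1, 8355 in FN2, 8728 in FT2 and 7565 in FT3. The median relative to the mean of FN1 and FN3 was 0.25 in FT1, 0.14 in FT3 and -0.69 in FT2, and it was lowest in the normal library FN2. The criteria were met by 2, 2 and 1 of the 19 with 12, 10 and 9 libraries, all higher in FT (1.95%, 7.02% and 0.356% of all genes). Besides Vtn, Kcnj8, a potassium channel subunit of pericytes, was at 2.39, 2.74 and 1.37 CPM in FN1, FN2 and FN3 and at 5.49, 0.871 and 13.7 CPM in FT1, FT2 and FT3 (log2 fold change 1.60, SE 0.71, and 2.46 with 10 libraries). Higd1b was at 2.14, 0.783 and 1.37 CPM in FN and at 2.61, 19.2 and 9.62 CPM in FT. Kcnj8 followed Vtn, high in FT1 and FT3 and low in FT2, while Higd1b was highest in FT2.

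Of 24 tested genes of the glucocorticoid response, 4 met the criteria with 12 libraries, all lower in FT, 1 higher and 3 lower did with 10, and 1 lower, Sgk1, with 9. Over all genes 0.224%, 2.72% and 0.622% were lower by these criteria, and 7.02% higher with 10. The list's median was -0.61, -0.19 and -0.12 in these fits. Fam107a, a stress-induced actin regulator, was at 26.3, 11.1 and 26.2 CPM in FN1, FN2 and FN3 and at 14.8, 6.31 and 7.95 CPM in FT1, FT2 and FT3. Plin4, a lipid droplet coat protein, was at 9.05, 9.26 and 11.6 CPM in FN and at 3.98, 2.61 and 0.837 CPM in FT. Plin4 did not overlap, and FN2 was among the normal values there, while Fam107a in FN2 lay below FT1. Mt1, a metallothionein of the same list, was at 308, 1645 and 342 CPM in FN and at 341, 3520 and 556 CPM in FT, high in FN2 and FT2. With 12 libraries the log2 fold change was -1.04 (SE 0.42) for Fam107a, -1.96 (SE 0.70) for Plin4 and 1.05 (SE 0.86) for Mt1, which stood at 0.59 with 10 and 0.077 with 9.

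**Figure D4:**
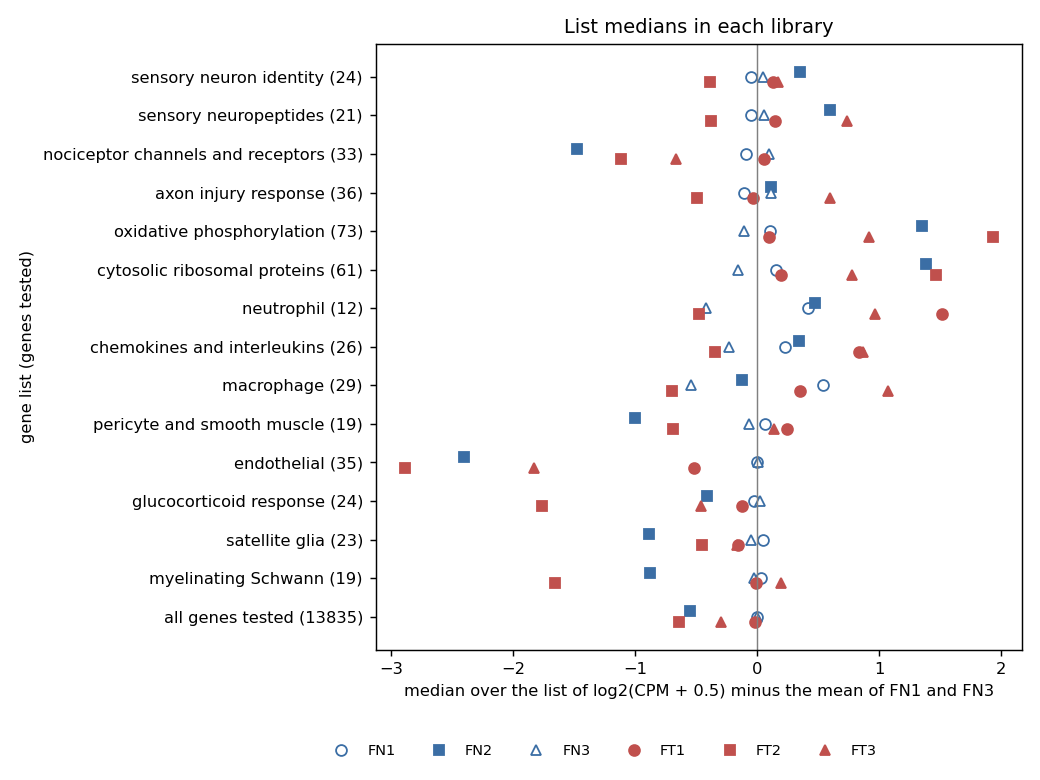
Median over each gene list (y axis, number of genes tested in brackets) of log2(CPM + 0.5) minus the mean of FN1 and FN3 (x axis), for each FN (blue) and FT (red) library, with FN1 and FN3 drawn open because they form the reference. FN2 lies with FT2 and FT3 in the endothelial, oxidative phosphorylation and ribosomal lists (for example 1.35, 1.93 and 0.91 for oxidative phosphorylation), and among the lists plotted FT1 leaves the reference most in the neutrophil (1.51), chemokine (0.84) and endothelial (-0.52) lists.

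Genes of neuronal function showed little in FT1. The sensory neuron identity list had a median of 0.13 in FT1, the nociceptor channel list 0.05 and the axon injury list -0.04, relative to the mean of FN1 and FN3. In FN2, FT2 and FT3 the nociceptor channel list was at -1.48, -1.12 and -0.67. Trpv1, the heat and capsaicin channel, was at 163, 11.4 and 235 CPM in FN1, FN2 and FN3 and at 263, 5.44 and 35.1 CPM in FT1, FT2 and FT3. Calca, the precursor of the neuropeptide CGRP, was at 3843, 11272 and 3918 CPM in FN and at 4419, 3242 and 7157 CPM in FT. Trpv1 was low in 1 normal and 2 tumor libraries, Calca was highest in the normal library FN2, and no identity, channel or touch receptor gene separated the groups.

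Among 21 tested neuropeptide genes, the groups did not overlap for 1, Cck, the cholecystokinin precursor, beside 2.49% of all genes. It was at 1.51, 0.783 and 1.92 CPM in FN1, FN2 and FN3 and at 3.84, 2.61 and 3.76 CPM in FT1, FT2 and FT3 (log2 fold change 1.37, SE 0.52), levels of few reads. Sst, somatostatin, was at 5.28, 7.44 and 4.25 CPM in FN and at 6.58, 37.0 and 8.37 CPM in FT, and Vgf, a granin of secretory vesicles, at 61.0, 113 and 74.9 CPM and at 96.8, 373 and 102 CPM. Sst and Vgf, 2 of the 21, met the criteria with 12 libraries, beside 1.95% of all genes higher in FT, and were high in FT2 alone. Nefh, the heavy neurofilament of large axons, was likewise at 543, 672 and 434 CPM in FN and at 726, 3134 and 498 CPM in FT.

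Gal and Sprr1a mark injured sensory neurons. Gal, galanin, was at 109, 1245 and 383 CPM in FN1, FN2 and FN3 and at 237, 1205 and 747 CPM in FT1, FT2 and FT3. Sprr1a, a protein of regenerating axons, was at 8.55, 167 and 53.7 CPM in FN and at 33.1, 105 and 114 CPM in FT. Both varied widely within the normal group, FN2 held the highest value of all 6 libraries, and FT1 lay between FN1 and FN3. Fitted log2 fold changes were 0.36 (SE 0.76) for Gal and 0.11 (SE 0.78) for Sprr1a with 12 libraries, 1.14 and 1.39 with 10, and -0.048 and 0.10 with 9, so the direction for Gal turned with the libraries used.

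Other cell types and responses gave few such genes. Of 31 tested immediate early genes, which neurons switch on with activity, edgeR gave 0 at an unadjusted p under 0.05 with 12 and with 10 libraries and 0 of 33 with 9, and their median was -0.06 in FT1 relative to the mean of FN1 and FN3. Of 23 tested satellite glia genes, 1 higher met the criteria with 12 libraries, 3 higher and 1 lower with 10, and 2 lower with 9, beside 2.18%, 9.74% and 0.978% of all genes in either direction. Fabp7, a fatty acid binding protein of satellite glia, was at 266 CPM in FN1, 309 in FN2, 334 in FN3, 297 in FT1, 198 in FT2 and 1002 in FT3. FT3 alone was high, and the log2 fold change was 0.74 (SE 0.48) with 12 libraries, 1.26 with 10 and -0.010 with 9.

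For the antigen-presenting genes of MHC class II, edgeR gave 0 of 7 an unadjusted p under 0.05 with 12 and with 10 libraries and 0 of 8 with 9, with a median log2 fold change of 0.90, 1.17 and 0.20 with 12, 10 and 9 libraries. H2-Ab1, which encodes a class II beta chain, was at 18.9, 13.3 and 9.73 CPM in FN1, FN2 and FN3 and at 19.6, 15.7 and 52.2 CPM in FT1, FT2 and FT3. Again FT3 was high and the other tumor libraries were near the normal ones. Of 31 tested interferon response genes, 2 higher and 1 lower met the criteria with 12 libraries, as did 2 higher and 1 lower of 32 with 10, beside 2.18% and 9.74% of all genes in either direction. With 9 libraries 0 of 34 met them, and edgeR gave 0 at an unadjusted p under 0.05. Ifitm1, an interferon-induced membrane protein, was at 4.52, 7.44 and 4.25 CPM in FN and at 7.96, 29.8 and 12.0 CPM in FT, without overlap, though FT1 was close to FN2.

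Genes of oxidative phosphorylation, the mitochondrial pathway that makes ATP, met the criteria in 9 of 73 with 12 libraries, 35 with 10 and 0 with 9, all higher in FT, beside 1.95%, 7.02% and 0.356% of all genes. Their median relative to the mean of FN1 and FN3 was 0.09 in FT1, 0.91 in FT3, 1.93 in FT2 and 1.35 in FN2, and that of 61 cytosolic ribosomal protein genes was 0.19, 0.78, 1.46 and 1.38. Atp5k, a subunit of ATP synthase, was at 65.4, 161 and 50.5 CPM in FN1, FN2 and FN3 and at 65.7, 1896 and 118 CPM in FT1, FT2 and FT3. Atp5g1, of the same complex, was at 7.92, 11.2 and 11.4 CPM in FN and at 11.9, 42.7 and 34.9 CPM in FT. Atp5g1 did not overlap, although FT1 barely cleared FN3, and Atp5k was over 10 times higher in FT2 than elsewhere. These libraries are also those with the most reads mapped to several places, and the part of that in these values was not tested.

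The genes meeting the criteria with 12 libraries and separating all FT from all FN libraries numbered 47, 39 higher and 8 lower in FT, and the 12 with the largest positive differences and the 8 lower ones were taken by a rule. FT2 held the highest value in 12 of the 12 and was more than 2 times the next FT library in 10. For the N-myristoyltransferase genes Nmt1 and Nmt2, whose enzymes attach a lipid to proteins, Nmt1 was at 119, 75.4 and 118 CPM in FN1, FN2 and FN3 and at 121, 1585 and 138 CPM in FT1, FT2 and FT3, and Nmt2 at 16.0, 14.5 and 12.5 CPM and at 17.4, 626 and 16.6 CPM. Outside FT2 both genes differed little. The log2 fold change went from 2.88 to 0.29 for Nmt1 and from 4.25 to 0.18 for Nmt2 when FT2 was left out. Brd9, a chromatin remodelling subunit, behaved alike (2.82 with all 12, 0.20 without FT2), as did Cdk5r2 (2.07 and 0.43), an activator of the neuronal kinase Cdk5.

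Others of the 12 kept more of their difference without FT2. Apoc1, an apolipoprotein of macrophages, was at 1.89, 1.70 and 0.822 CPM in FN1, FN2 and FN3 and at 1.92, 61.8 and 5.996 CPM in FT1, FT2 and FT3, with a log2 fold change of 4.23 that became 1.37 without FT2. Ccl12 went from 3.89 to 2.62, Camp from 2.95 to 2.24, Higd1b from 3.08 to 2.10, Pf4 from 2.79 to 1.59 and Cxcl2 from 2.19 to 1.23. Rpl38 (4.23 and 1.23) was counted at 0.251 to 1.78 CPM outside FT2 and at 25.0 CPM in FT2, and reads of such ribosomal genes may be shared with processed copies. Fam166a went from 2.31 to 0.73. The 4 chemokine or granule genes, Ccl12, Camp, Pf4 and Cxcl2, thus stood at 1.23 or more without FT2. So did Higd1b, Apoc1 and Rpl38, which are neither, while Nmt1, Nmt2, Brd9 and Cdk5r2 stood at 0.43 or less.

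The 8 lower genes were each highest in FN2, and all were nearer to 0 when FN2 was left out. Gpihbp1, the endothelial anchor of lipoprotein lipase, was at 33.8, 43.4 and 21.8 CPM in FN1, FN2 and FN3 and at 19.1, 12.4 and 11.4 CPM in FT1, FT2 and FT3 (log2 fold change -1.20, SE 0.52). Isoc1 was at 73.0, 99.8 and 55.1 CPM in FN and at 48.7, 28.5 and 34.0 CPM in FT (-1.04, SE 0.34). Ift81, part of the transport machinery of cilia, was at 18.1, 22.4 and 19.0 CPM in FN and at 12.9, 6.97 and 11.7 CPM in FT (-0.90, SE 0.33). Tle1, a transcriptional co-repressor, was at 44.2, 52.4 and 37.5 CPM in FN and at 34.3, 16.3 and 22.3 CPM in FT. Cebpg, Inha, Lrch3 and Sidt2 had log2 fold changes between -0.96 and -0.70, and the 8 genes stood between -1.24 and -0.49 without FT2 and between -0.77 and -0.16 without FN2. The value nearest to 0 without FN2 was that of Cebpg, a transcription factor, which was at 21.5, 49.7 and 19.2 CPM in FN1, FN2 and FN3 and at 18.5, 15.0 and 13.8 CPM in FT1, FT2 and FT3. It went from -0.96 with 12 libraries to -0.16 without FN2, -0.24 with 10 and -0.13 with 9.

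**Figure D5:**
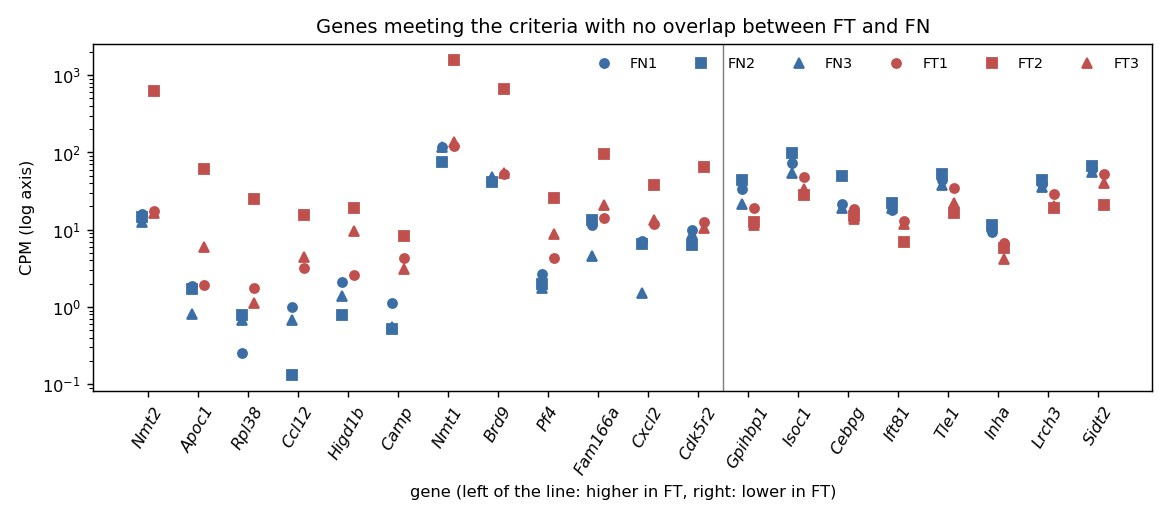
CPM (log axis) of the 20 genes with the largest fitted differences that met the criteria with 12 libraries and did not overlap, FN blue and FT red, marker shape by replicate, higher in FT left of the line and lower right of it. FT2 (red square) is far above all other points for Nmt2 (626 CPM), Nmt1 (1585) and Brd9 (662), and FN2 (blue square) is the highest point of each of the 8 lower genes, furthest from the others for Cebpg (49.7 CPM).

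The study's text named 81 genes as higher and 34 as lower in FT, part of a longer list. They were chosen on samples of this comparison and are no independent evidence of a direction. The study's fold changes for Ctgf, Cav2 and Sgk1 were 0.276, 0.305 and 0.44. These equal the mean CPM of FT1 and FT3 over that of FN1 and FN3, while all 6 libraries give 0.26, 0.341 and 0.471. For these genes the study's values thus match the libraries without FN2 and FT2. Of 79 tested higher genes the criteria were met by 12 with 12 libraries, 46 with 10 and 14 with 9, and of 34 lower genes by 5, 23 and 10, each in the named direction. Over all genes 1.95%, 7.02% and 0.356% were higher and 0.224%, 2.72% and 0.622% lower. The median log2 fold change of the higher genes was 0.49, 1.20 and 0.59, and of the lower genes -1.01, -1.14 and -0.65. By library, relative to the mean of FN1 and FN3, the higher genes had a median of 0.60 in FT1, -0.22 in FT2 and 1.45 in FT3, but also 1.06 in the normal library FN2. For the lower genes the values were -0.64, -2.52 and -2.19, with -2.57 in FN2. FN2, a normal library, was thus second to FT3 on the higher list and the lowest of all on the lower list. In 9 of the 79 higher genes all FT libraries lay above all FN libraries, Camp, Ccl12, Cxcl2, Ccl11, Pf4, Apoc1, Atp5g1, Ifitm1 and Pgf, and in 0 of the 34 lower genes did they lie below, beside 1.22% and 1.26% of all genes.

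The tumor comparison in female mice was set against that in males (MT against MN, 3 libraries each), which shares no library with it. The difference between the 2 comparisons passed an adjusted p of 0.05 for 0 of 13835 genes by edgeR, and also for 0 by DESeq2 and limma-voom. At an unadjusted p under 0.05 there were 203 genes (1.47%), 283 and 660 in turn. Ctgf had a log2 fold change of -1.92 in females and 0.98 in males, a difference of -2.90 (SE 1.21), and Vtn 1.81 and -0.57, a difference of 2.37 (SE 0.99). Sprr1a stood at 0.11 in females and 4.27 in males, a difference of -4.16 (SE 1.18). The female value for Sprr1a ran from -0.43 to 1.70 with 1 FN or FT library left out. For Camp the values were 2.95 and 1.77 and for Il1a 2.57 and 1.55, differences smaller than their errors (1.18, SE 1.34 and 1.02, SE 1.48). None of these differences passed adjustment.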

How the data were processed

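Labeled TG neurons of 12 samples were profiled by SMART-seq2 and single-read sequencing. The authors aligned reads to mm9 with TopHat2 and counted them with HTSeq, and the deposited values are whole read counts per gene symbol, 22609 genes, without normalization. The submitters' processing notes also name CASAVA 1.8.2 and SAMtools. The annotation and strand setting are not given in the sources used here, so overlapping antisense genes cannot be told apart. Rows of unassigned reads (77.7% to 88.8% of reads in the 6 FN and FT libraries) were dropped before CPM, RPKM and the fits. They served only to describe the libraries and to give the share of multiply mapped reads, a covariate in an alternative fit.

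CPM (counts scaled to 1000000 reads on genes) were computed and RPKM used exon lengths of GENCODE M1 (mm9), which matched 95.7% of symbols. Counts were fitted in edgeR 4.0.16 (R 4.3.3) with TMM, filterByExpr (minimum count 10, minimum total 15) and the quasi-likelihood test, in 1 model of 12 libraries and 4 groups, with Benjamini-Hochberg adjustment over all genes tested. Contrasts were FT minus FN and its difference from MT minus MN. DESeq2 1.42.0, limma-voom (limma 3.58.1) and other settings were alternatives. The fit was tested on simulated data. Levels by library used log2(CPM + 0.5). Other calculations used Python 3.11.15 and pandas 2.3.3. Promoters came from RefSeq (GRCm38.p6) and were not joined to mm9 positions.

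Named genes were the 12 largest rises and falls (8 falls existed) that met the criteria with 12 libraries, did not overlap between FT and FN, and kept their direction without FN2, FT2 and FT3, members of 33 gene lists, and genes the study named. Members and lists were chosen with earlier results of these data known. Replicates are separate pools per the series design. The CPM worth of 3 reads covers counting error only.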

Additional observations from a re-analysis of the deposited data

Results flagged for a closer look

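In data outside the gene counts, FT replicate 2 had 68.4% of its reads mapped to several places, above the highest normal library (56.0%, FN replicate 2). Groups of 3 are too small for a test of single outlying samples, and no gene passed the test of a difference between the female and male comparisons.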

How the results depend on the processing

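No gene passed an adjusted p of 0.05 between FT and FN, or in the difference from the males, under any alternative run. The lowest adjusted p of a gene named here under any of 16 settings was 0.183, without FT replicate 1. Genes meeting the criteria, 301 with 12 libraries, numbered 520 with limma-voom and sample quality weights, 102 with the 6 FN and FT libraries alone, 1358 without FN2 and FT2, 140 without FN2, FT2 and FT3, 122 with a covariate for the share of multiply mapped reads, and 464 with RPKM > 1. Leaving out 1 library gave 67 to 1531. Each of the 6 moved the count by over 1.5 times, to 145 without FN1, 1531 without FN2, 145 without FN3, 1378 without FT1, 67 without FT2 and 972 without FT3. Of these calls 89.7% were higher in FT with 12 libraries, 30.8% with limma-voom and 31.1% with the covariate. The causes were not tested.

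Replicate numbers are shared by the groups. Deviations from the group means correlated at 0.59 between FN1 and FT1, 0.20 between FN2 and FT2 and -0.38 between FN3 and FT3. Between unlike numbers they ran from -0.67 (FN2 and FT1) to 0.63 (FN3 and FT1). With 3 libraries in a group, the outlying ones weigh heavily in these values. They cannot decide whether the numbers pair the samples. A replicate block gave 201 genes meeting the criteria and 0 with an adjusted p under 0.05, and changed no other call.

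Of the 30 list medians, 13 moved by more than the spread between replicates under some setting. The chemokine median, 0.43 with 12 libraries, was 1.15 without FN2 and FT2, and with 1 library left out it ran from 0.14 (without FN1) to 0.87 (without FN2), with 0.28 without FT3. The neutrophil median (0.49) ran from 0.11 (without FT3) to 1.35 (without FN2), with 0.18 without FN3. The macrophage median (0.47) ran from -0.03 (without FT3) to 0.64, with 0.21 without FN3, and that of oxidative phosphorylation (0.57) from -0.15 (without FT2) to 1.43 (without FN2). The endothelial median (-0.70) ran from -1.19 (without FT1) to -0.58, with -1.06 without FN2. Of 1018 values of named genes under alternatives, 37 changed sign. Without FN2, FT2 and FT3 this held for Calca (0.19), Trpv1 (0.41), Gal (-0.048), Fabp7 (-0.010) and Cdh5 (-0.78), and without FN2 and FT2 for Calca (0.70), Cdh5 (-1.18) and Cldn5 (0.39). With limma-voom it held for Calca (0.47) and Cdh5 (-0.95), and with the covariate for Trpv1 (0.52), Gal (-0.43), Sprr1a (-0.36), Cdh5 (-0.26) and Mt1 (-0.50). With 1 library left out, Tubb3 ran from -0.41 to 0.35, Calca from -0.75 to 0.53, Trpv1 from -2.55 to 0.21, Gal from -0.41 to 1.89, Sprr1a from -0.43 to 1.70, Cxcl1 from -0.13 to 1.70, Cd14 from -0.05 to 1.27, Ly86 from -0.062 to 1.15, Icam1 from -0.40 to 1.24, Cdh5 from -0.77 to 0.59, Cldn5 from -0.97 to 0.21, Mt1 from -0.97 to 2.58, Atp5k from -0.15 to 4.02 and Fabp7 from -0.23 to 1.07. FT2 had the fewest reads on genes, and 3 of its reads correspond to 0.653 CPM, so absence of a low gene there is weakly determined.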
